A study of Homo sapiens with 9 samples.

Results

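MHC class I molecules were followed through 7 genes: the heavy chains HLA-B, HLA-C, HLA-E, HLA-F and HLA-G, their shared light chain B2M, and NLRC5. They were chosen by gene symbol in the array's annotation, and 6 of the 7 were found, with 1 transcript cluster each, among 17687 named genes. HLA-B was not analysed here. The signal came from 9 Clariom S arrays of ACC-MESO-1, an established line grown from malignant mesothelioma, a cancer of the pleural membrane. The 3 groups had 3 arrays each: cells with a control shRNA (replicates 1 to 3), cells with the hairpin shLSD1 #1 (replicates 4 to 6) and cells with the hairpin shLSD1 #2 (replicates 7 to 9). All groups were infected with a hairpin, and all were grown in RPMI-1640 with 10% serum. Whether cells were clones or pools, and whether replicates were separate cultures, is not said in the labels, so p-values reflect only how much these arrays vary, which may be technical.

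LSD1 removes methyl groups from histone H3, mostly as a corepressor, and the series concerns its suppression in relation to the mesenchymal phenotype of this cancer. A class I molecule is a heavy chain paired with beta-2-microglobulin, the product of B2M, that holds a short peptide from the cell's own proteins at the surface. HLA-B and HLA-C are classical heavy chains, which show peptides to CD8 T cells and are also read by receptors of natural killer cells. HLA-E, HLA-F and HLA-G are non-classical: HLA-E presents signal peptides of other class I chains to natural killer receptors, and HLA-G is best known from the placenta. NLRC5 is a nuclear co-activator that joins a complex of RFX, CREB and NF-Y proteins at class I promoters. Interferons and NF-kB raise transcription of class I genes through an interferon-stimulated response element (ISRE) and a kappa-B site in the same promoters.

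The promoters of the measured genes are shown because they hold different numbers of matches to short patterns for these elements. RefSeq gave starts for 5 of the 7 genes, 4 of them with a cluster; HLA-E and NLRC5 were not matched. Each sequence is the 250 bases before the transcript start on the gene's own strand, in GRCh38.p14: HLA-C at chr6:31272093-31272342 (minus strand), HLA-F at chr6:29723184-29723433 (plus strand), HLA-G at chr6:29827575-29827824 (plus strand) and B2M at chr15:44711267-44711516 (plus strand). RefSeq lists 3 starts for HLA-G, and the most downstream is shown. The windows of its other starts held no match to any of the patterns given next. Capitals mark matches, on either strand, to the ISRE pattern TTTCNNTTT, its shorter form TTTCNNTT that lies within it, the X2 box core TGACG, the Y box CCAAT and the kappa-B pattern GGGGATTC.
HLA-C: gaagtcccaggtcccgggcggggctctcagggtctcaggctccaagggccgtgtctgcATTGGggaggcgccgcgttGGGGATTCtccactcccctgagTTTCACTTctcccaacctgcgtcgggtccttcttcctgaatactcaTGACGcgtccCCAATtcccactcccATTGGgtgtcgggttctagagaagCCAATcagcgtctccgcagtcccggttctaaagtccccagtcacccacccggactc
HLA-F: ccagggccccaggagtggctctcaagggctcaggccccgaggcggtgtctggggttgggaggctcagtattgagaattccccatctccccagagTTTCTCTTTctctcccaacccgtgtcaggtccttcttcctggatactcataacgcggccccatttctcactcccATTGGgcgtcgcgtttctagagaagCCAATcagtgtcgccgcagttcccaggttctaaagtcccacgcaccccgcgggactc
HLA-G: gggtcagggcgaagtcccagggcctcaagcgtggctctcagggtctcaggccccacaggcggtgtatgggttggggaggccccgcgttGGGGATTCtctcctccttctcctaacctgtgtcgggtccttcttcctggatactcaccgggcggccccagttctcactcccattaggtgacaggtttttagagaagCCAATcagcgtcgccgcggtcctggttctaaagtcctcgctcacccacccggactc
B2M: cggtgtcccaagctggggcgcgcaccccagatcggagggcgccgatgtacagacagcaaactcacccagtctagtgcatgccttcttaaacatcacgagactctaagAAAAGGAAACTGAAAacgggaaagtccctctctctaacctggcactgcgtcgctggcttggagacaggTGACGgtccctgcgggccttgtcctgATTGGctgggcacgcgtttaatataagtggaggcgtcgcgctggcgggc
HLA-F had 1 match to the longer ISRE pattern and B2M had 2 that overlap, whereas HLA-C had only the shorter form, 1 time. HLA-C had 1 kappa-B match and 1 X2 match, B2M had 1 X2 match, and HLA-F had neither. The HLA-G window held 1 kappa-B match and 1 Y box, with neither ISRE form and no X2 match. Its kappa-B match appeared only after the patterns were shortened following a first search. HLA-B, whose signal was not analysed here, had the same kinds of match as HLA-C: 1 kappa-B, 1 short ISRE, 1 X2 and 3 Y boxes. Among 35116 RefSeq windows of the same length, 9.2% held the longer ISRE pattern, 20.3% the shorter form, 21.2% the X2 core, 32.0% a Y box and 0.772% the kappa-B pattern. A match describes letters in this window, not a bound site. Elements of other spelling are not counted, so a window without a match may still hold the element.

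**Figure D1:**
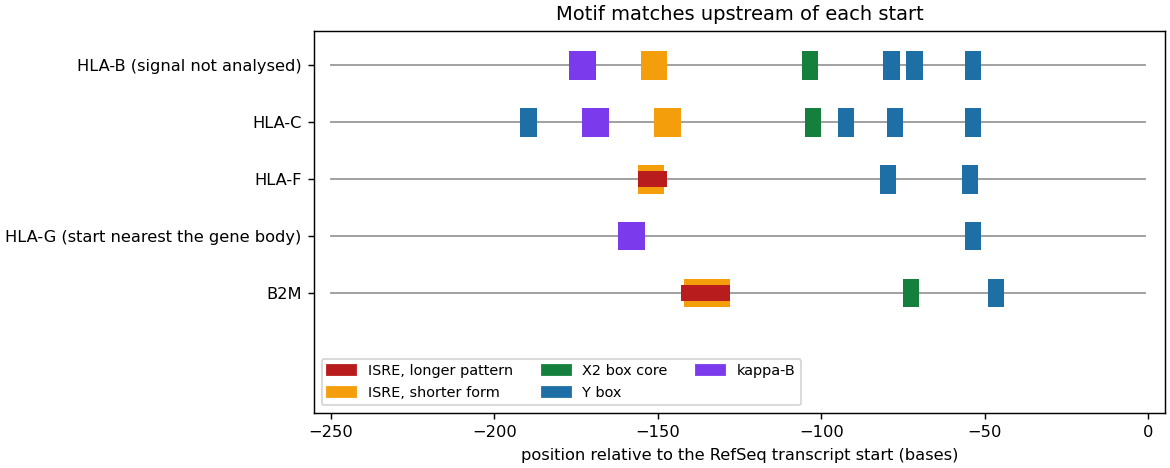
Motif matches in the 250 bases before the RefSeq start of HLA-B, HLA-C, HLA-F, HLA-G and B2M, with position relative to the start in bases on the x axis. The kappa-B pattern GGGGATTC stands in HLA-B, HLA-C and HLA-G, and the longer ISRE pattern in HLA-F and B2M. For HLA-G only the most downstream of its RefSeq starts is drawn. Elements of other spelling are not marked.

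Signal is given as deposited, in log2 units after RMA (robust multi-array average). Background on each array was the 95th percentile of its 612 negative control probe sets, between 6.93 and 7.54. All 5 class I chain genes measured (HLA-C, HLA-E, HLA-F, HLA-G and B2M) exceeded it on all 9 arrays, and NLRC5 on none. No level is compared between genes, since probe sets differ in response. Changes were tested with limma over 21448 transcript clusters, with Benjamini-Hochberg adjustment and a threshold of 0.05.

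Every class I chain gene that was measured fell with both hairpins, by 1.71-fold (HLA-G) to 2.57-fold (HLA-C) with shLSD1 #1 and by 1.82-fold to 2.44-fold for the same genes with shLSD1 #2 (n = 3 arrays per group). Thus 5 of 6 members were lower and 0 higher with each hairpin, and NLRC5 did not pass the test. Over all clusters, 7.94% were called lower with shLSD1 #1, 6.63% with shLSD1 #2, and 5.32% with both, while 7.85% and 6.56% were called higher. The median log2 change of the 6 members was -1.05 with shLSD1 #1 and -1.14 with shLSD1 #2, against 0.03 and 0.02 over all clusters. Both comparisons use the same 3 control arrays. With arrays of low and high spike-in signal as a block, 3 of these calls ended, those of HLA-C, HLA-E and HLA-G in shLSD1 #1. In that fit HLA-C had -1.19 against -1.36, HLA-E -1.34 against -1.25 and HLA-G -0.53 against -0.77. Their standard errors were 0.40 against 0.21, 0.37 against 0.20 and 0.27 against 0.15. In RNA of whole cultures, fewer cells carrying a transcript and less of it per cell cannot be told apart.

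The classical heavy chain HLA-C read 13.55, 13.65 and 13.74 on the control arrays. It read 12.12, 12.78 and 11.96 with shLSD1 #1, and 12.20, 12.25 and 12.64 with shLSD1 #2. The lowest control array was 0.77 above the highest hairpin array, shLSD1 #1 replicate 5, so the groups did not overlap. HLA-C changed by -1.36 ± 0.21 with shLSD1 #1 (SE, n = 3, limma adjusted p = 0.00235) and by -1.28 ± 0.21 with shLSD1 #2 (adjusted p = 0.00355), with 95% intervals of -1.84 to -0.88 and -1.76 to -0.81.

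Among the non-classical chains, HLA-E read 12.001, 12.13 and 11.90 in control, 10.66, 11.24 and 10.37 with shLSD1 #1, and 10.72, 10.84 and 10.79 with shLSD1 #2. Its control arrays were all above its hairpin arrays, and the spread was widest with shLSD1 #1, at an SD of 0.44 against 0.12 in control and 0.06 with shLSD1 #2. The change was -1.25 ± 0.20 with shLSD1 #1 (SE, n = 3, limma adjusted p = 0.00245) and -1.23 ± 0.20 with shLSD1 #2 (adjusted p = 0.00305).

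HLA-F, much of which is held inside cells, read 12.73, 12.74 and 12.66 in control, 11.46, 11.76 and 11.53 with shLSD1 #1, and 11.44, 11.46 and 11.49 with shLSD1 #2. Of the 4 HLA genes it had the smallest spread in control and in shLSD1 #2 arrays (SD 0.044 and 0.025) and no overlap between control and hairpin arrays. It changed by -1.13 ± 0.11 (SE, n = 3, limma adjusted p = 0.000185) and -1.25 ± 0.11 (adjusted p = 9.99e-05).

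HLA-G read 10.997, 10.99 and 11.18 in control, 10.43, 10.43 and 9.98 with shLSD1 #1, and 10.32, 10.03 and 10.22 with shLSD1 #2. Its groups were also apart, by 0.56 between the lowest control and the highest hairpin array. The change of -0.77 ± 0.15 with shLSD1 #1 (SE, n = 3, limma adjusted p = 0.00728) and -0.87 ± 0.15 with shLSD1 #2 (adjusted p = 0.00477) was the smallest estimate among the 5 genes that fell. Whether it differs from those of the other genes was not tested.

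The light chain B2M, which heavy chains need to fold and reach the surface, read 16.81, 16.84 and 16.87 in control. It read 15.88, 15.86 and 15.84 with shLSD1 #1, and 15.74, 15.85 and 15.78 with shLSD1 #2. The SDs within groups were 0.034, 0.024 and 0.058, and the control arrays were at least 0.92 above every hairpin array. B2M changed by -0.98 ± 0.10 (SE, n = 3, limma adjusted p = 0.000187) and -1.05 ± 0.10 (adjusted p = 0.000125), which is 1.97-fold and 2.07-fold. Its control signal lies above 16, the log2 of the top of a 16-bit scan, as does the mean of 130 clusters, so it is a relative value, and whether the response is compressed there was not tested.

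NLRC5, the co-activator, read 4.94, 4.87 and 4.40 in control, 4.92, 5.24 and 4.40 with shLSD1 #1, and 4.32, 4.44 and 4.76 with shLSD1 #2. All 9 values were below the negative control percentile and the groups overlapped. The fitted changes were 0.12 ± 0.23 and -0.23 ± 0.23 (SE, n = 3, limma adjusted p = 0.787 and 0.602), and no fold is given, since both groups are below background. An NLRC5 transcript was thus not detectable with this probe set in any group.

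**Figure D2:**
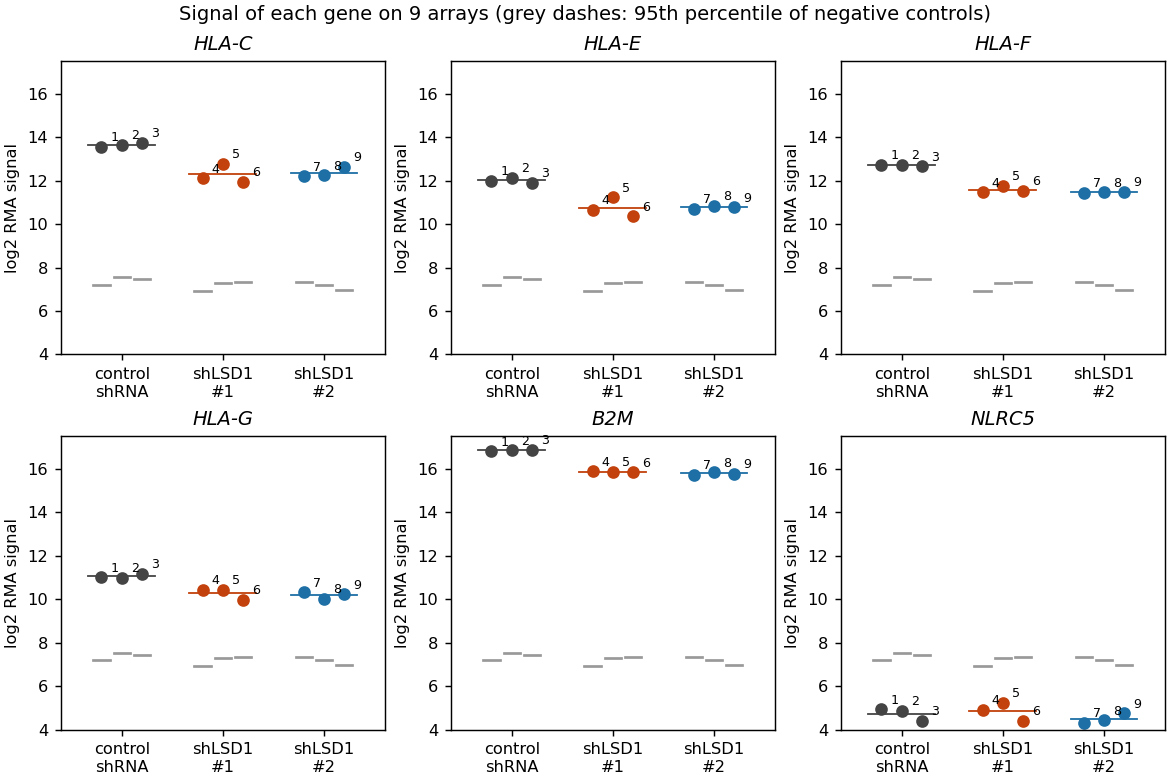
Log2 RMA signal of HLA-C, HLA-E, HLA-F, HLA-G, B2M and NLRC5 on each of 9 arrays (points, numbered by replicate), with the group mean as a line and the 95th percentile of the negative controls of each array as a grey dash. In the first 5 panels all control points lie above all hairpin points; NLRC5 lies below the grey dashes on all arrays.

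Every hairpin array was below every control array for all 5 class I chain genes above background. Over all clusters this held for 16.8% with shLSD1 #1, 15.3% with shLSD1 #2 and 11.3% with both hairpins together. In the mean of both hairpins against control, where 8.98% of clusters were lower, the same 5 genes passed and their log2 changes ran from -1.32 (HLA-C) to -0.82 (HLA-G).

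The 2 hairpins were also set against each other. None of the 6 members passed in the contrast of shLSD1 #1 minus shLSD1 #2 by limma, where 0.0% of clusters did. Of the members 0 had an unadjusted p under 0.05, against 1687 of 21448 clusters, and with a trended robust prior 0 members and 0.196% of clusters passed. The 95% intervals of the difference were -0.15 to 0.29 for B2M, -0.13 to 0.37 for HLA-F, -0.25 to 0.43 for HLA-G, -0.46 to 0.42 for HLA-E and -0.55 to 0.40 for HLA-C. The bounds leave room for differences up to these sizes, most for HLA-C and HLA-E among the class I chain genes. The interval of NLRC5, whose values are below background, was wider, at -0.17 to 0.87.

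Control transcripts added at hybridization differed between arrays in a way that moved with the groups. The mean log2 signal of their 4 probe sets lay at 10.80 to 10.93 on shLSD1 #2 replicate 8 and all 3 arrays of shLSD1 #1. It lay at 11.18 to 11.38 on the other 5 arrays, which gave a low and a high class. With this class as a block, B2M (-1.07 ± 0.18, adjusted p = 0.0264) and HLA-F (-1.13 ± 0.21, adjusted p = 0.0395) kept their shLSD1 #1 calls (limma, SE, n = 3). The calls of HLA-C (-1.19 ± 0.40, adjusted p = 0.201), HLA-E (-1.34 ± 0.37, adjusted p = 0.131) and HLA-G (-0.53 ± 0.27, adjusted p = 0.407) ended. In that fit 1.0% of clusters were lower with shLSD1 #1. The shLSD1 #2 change with the block is that of replicates 7 and 9 against control, and all 5 genes stayed past the threshold there, at adjusted p between 0.000752 and 0.0223, with 4.52% of clusters lower. In the mean of both hairpins, 3 of the 5 calls remained, B2M, HLA-E and HLA-F, with 2.93% of clusters lower. Only the shLSD1 #2 arrays hold both classes, so class and shLSD1 #1 cannot be told apart within the shLSD1 #1 comparison itself.

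**Figure D3:**
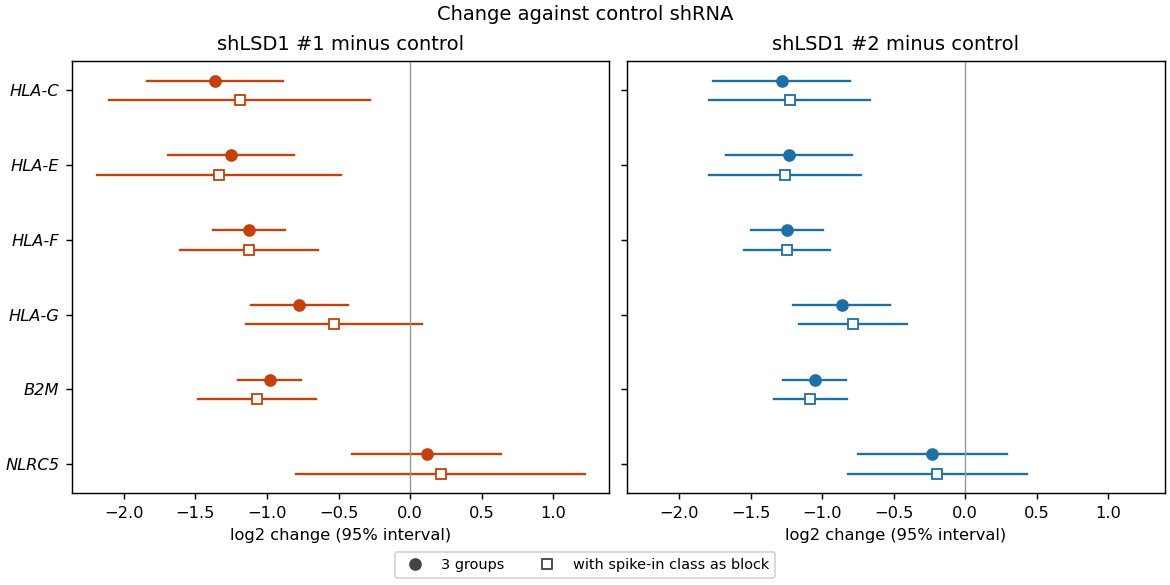
Log2 change against control shRNA with its 95% interval for the 6 members, from the fit of the 3 groups (filled circles) and with that class as a block (open squares). Intervals of the 5 class I chain genes lie below 0 with both hairpins, except HLA-G with shLSD1 #1 and the block, and those of NLRC5 span 0.

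HLA genes resemble each other in sequence, so a probe set may read more than its own transcript, and the probe sequences were not used here. How members deviate on single arrays is given as a description only, and cross-reading was not tested. On shLSD1 #1 replicate 5, HLA-C was 0.50 and HLA-E 0.48 above the group mean, while HLA-F and HLA-G were 0.18 and 0.15 above and B2M was 0.0033 above. On shLSD1 #2 replicate 9, HLA-C was 0.27 above its mean, with HLA-E at 0.0083. NLRC5, which is no HLA gene and lies below background, was also raised on both arrays, by 0.39 and 0.26. Across the 9 arrays, deviations from the group mean had r = 0.81 for HLA-C with HLA-E, 0.78 for HLA-C with HLA-F and 0.85 for HLA-E with HLA-F, given as a description of arrays that share labelling, scanning and normalization. Without shLSD1 #1 replicate 5 these were 0.19, -0.035 and 0.049 over 8 arrays, so they rest on that array. HLA-G had lower r, at 0.54 with HLA-C, 0.46 with HLA-E and 0.13 with HLA-F, and 0.38, 0.23 and -0.76 without that array. NLRC5 deviated with HLA-E at r = 0.80 and with HLA-C at 0.68, and at 0.77 and 0.41 without that array. Of all other clusters, 5% reached r = 0.76 or more with HLA-C and 0.71 or more with HLA-E. High r thus also occurred with NLRC5, whose values are below background, and the source of these shared deviations was not tested. Deviations of B2M and HLA-C had r = 0.17.

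**Figure D4:**
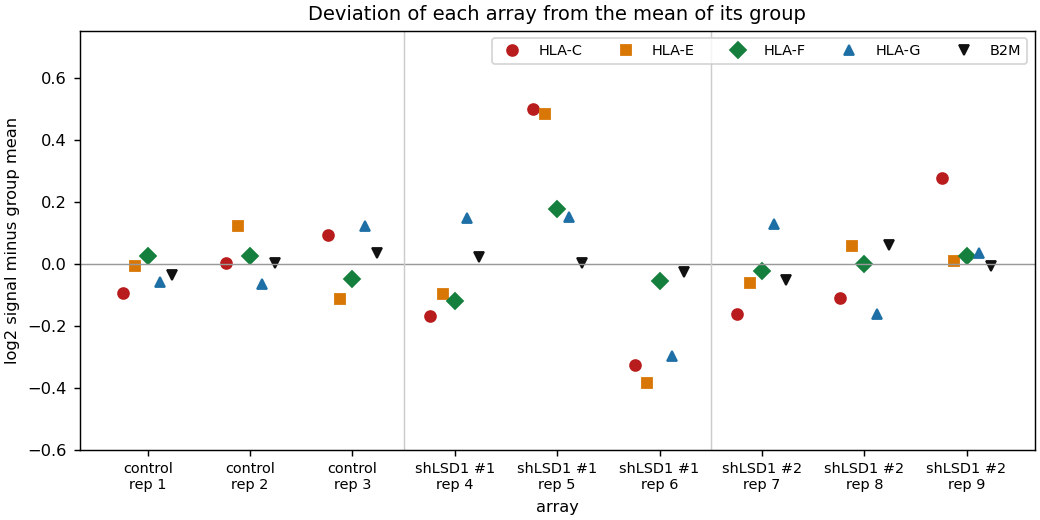
Log2 signal of each array minus the mean of its group for HLA-C, HLA-E, HLA-F, HLA-G and B2M, by array. HLA-C and HLA-E are both raised on shLSD1 #1 replicate 5, by 0.50 and 0.48, where B2M stays at its mean.

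HLA-L, a class I pseudogene that is no member and was picked after its values were seen, has a cluster of its own. It read 12.31, 12.29 and 12.13 in control, 11.35, 11.46 and 11.26 with shLSD1 #1, and 11.23, 11.21 and 11.42 with shLSD1 #2. It changed by -0.89 ± 0.12 (SE, n = 3, limma adjusted p = 0.00092) and -0.96 ± 0.12 (adjusted p = 0.000623), and how far the HLA clusters read one another was not tested.

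Genes that act with class I chains were followed in lists. Where a pair of counts or log2 changes follows, the first belongs to shLSD1 #1 and calls are by limma over all clusters. For reading these counts, 7.94% and 6.63% of all clusters were lower and 7.85% and 6.56% higher, with a median change of 0.03 and 0.02. Of 14 regulators of class I promoters on the array, 3 and 4 were lower and 1 and 0 higher, with a median of -0.24 and -0.10. IRF9, which carries STAT dimers to ISREs, changed by -2.18 and -2.27, and IRF1, an interferon-induced activator that binds ISREs, by -1.15 and -1.02. RFX5, a DNA-binding subunit of the RFX complex, changed by -0.78 and -0.43. RFXAP, another RFX subunit, rose by 1.09 with shLSD1 #1 (adjusted p = 0.0183) and had 0.65 with shLSD1 #2 (adjusted p = 0.144), but it was above the negative controls on 1 of 9 arrays.

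In peptide loading and trimming, 4 and 6 of 11 genes were lower and 0 and 1 higher, with a median of -0.32 and -0.55. TAPBPL, a peptide editor related to tapasin, changed by -2.23 and -2.27. TAP1 and TAP2, the subunits of the transporter that brings peptides to class I molecules, changed by -1.39 and -1.55 and by -0.82 and -0.63. HM13, the signal peptide peptidase that helps to free the peptides HLA-E presents, changed by -0.72 and -0.55. The general chaperones CALR and CANX had -0.14 and -0.04, and -0.18 and -0.08, and did not pass. Of 8 proteasome genes, 4 and 3 were lower and 0 higher, with a median of -0.49 and -0.29. With values raised to the negative controls the first of these medians was -0.32. The interferon-induced catalytic subunits PSMB8 and PSMB9 changed by -1.03 and -0.95 and by -1.08 and -0.83, and the proteasome activator PSME1 by -0.87 and -0.75. PSMB10, another such subunit, did not pass (adjusted p = 0.183 and 0.624) and was below the negative controls on all 9 arrays. PSMB6, a constitutive subunit, changed by -0.47 (adjusted p = 0.0192) and -0.36 (adjusted p = 0.0651).

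Among 18 class I-like and natural killer ligand genes, 4 and 4 were lower and 0 and 1 higher, and 11 were below the negative controls on all 9 arrays. MR1, which presents vitamin metabolites to MAIT cells, changed by -1.20 and -1.29 and was above the negative controls on 7 arrays. HFE, a class I-like regulator of iron uptake, was above them on the control arrays only and was at least 1.38-fold lower with each hairpin. In these lower bounds each hairpin array is set to its negative control percentile or its own value, whichever is higher. ULBP2, a ligand of the receptor NKG2D, passed as lower (adjusted p = 0.0184 and 0.0477) but was above the negative controls on 1 of 9 arrays, a control array, so no fold is given. MICA, another ligand of NKG2D, had 0.39 with shLSD1 #1 (adjusted p = 0.0526) and rose by 0.41 with shLSD1 #2 (adjusted p = 0.0493).

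All 11 MHC class II genes on the array were below the negative controls on all 9 arrays, with 1 and 1 called higher and 0 lower. Of the 10 NLR relatives of NLRC5, 9 were below on all arrays and 0 passed with either hairpin. Of 14 genes of heavy chain turnover, 2 and 2 were lower and 1 and 0 higher, and SUSD6, which passed with both hairpins, was below the negative controls on all arrays. Of 23 listed neighbours of the class I genes in the MHC, 12 had a cluster, and 5 of these were below on all arrays. Where 7.94% and 6.63% of all clusters were lower, 1 of these 12 neighbours was lower with each hairpin and 0 higher. It was HCP5, a non-coding RNA gene between MICA and MICB, at least 1.75-fold and 1.76-fold lower and above the negative controls on the control arrays only.

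**Figure D5:**
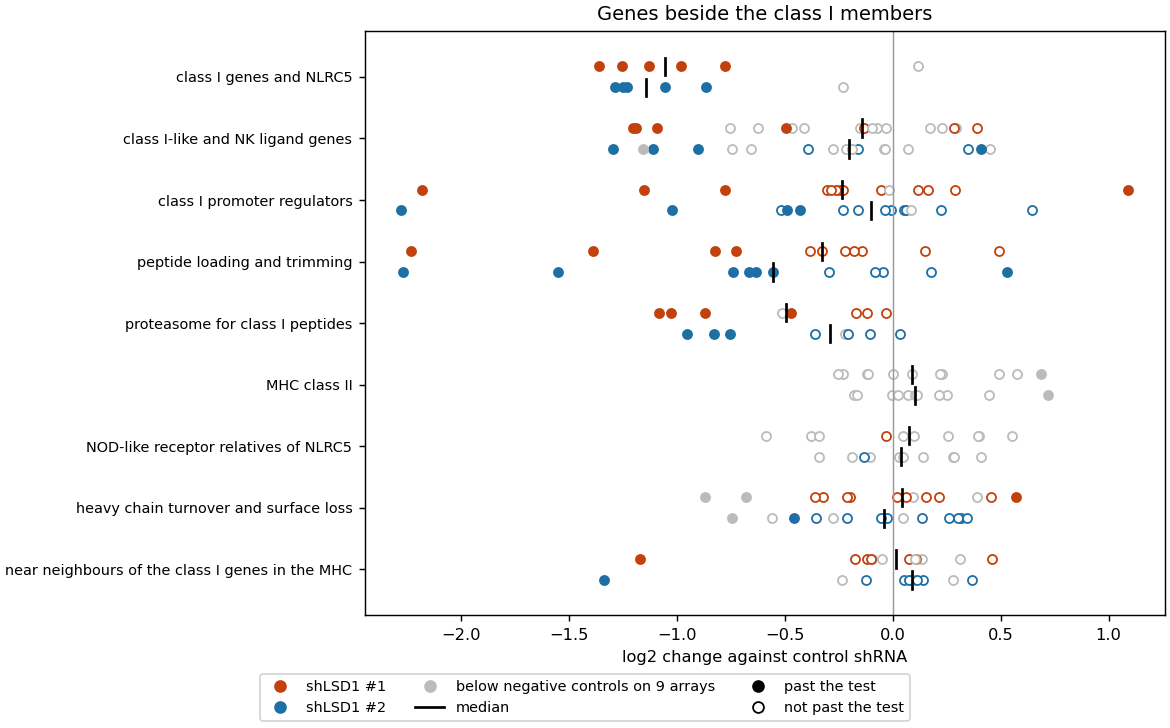
Log2 change against control shRNA of the 6 members and of 8 lists, 1 point per gene and hairpin, filled where past the test and grey where below the negative controls on all 9 arrays; black bars are medians. The 5 class I chain genes lie between -1.36 and -0.77, and MHC class II genes are grey throughout.

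Leukocytes carry much class I, so their markers were checked. All 10 leukocyte markers on the array, among them PTPRC, CD3E, CD8A and CD14, were below the negative controls on all 9 arrays, with 1 called higher with shLSD1 #1 and 0 with shLSD1 #2. Their mean log2 signal was 3.87 to 4.07 in control, 4.12 to 4.27 in shLSD1 #1 and 3.88 to 4.18 in shLSD1 #2 arrays. The 3 endothelial and 2 erythroid markers were also below throughout. Of 9 mesothelial markers, 3 were above on all arrays, MSLN, KRT8 and KRT18, and 2 never, CALB2 and KRT5. MSLN, the surface protein mesothelin, fell by 0.85 and 0.95 on the log2 scale (limma adjusted p = 0.00729 and 0.00482). WT1, a transcription factor of mesothelium, and UPK3B, a mesothelial membrane protein, passed as higher with both hairpins but were below the negative controls on the control arrays. The part of these marker changes in the class I result was not tested. LSD1 itself is not analysed here, so the extent of its suppression was not checked.

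Genes of like profile were found for the mean of the HLA genes, for B2M and for NLRC5 by Pearson r over the 9 arrays, which the difference between control and hairpin arrays dominates. For the mean of HLA-C, HLA-E, HLA-F and HLA-G these were MCL1, an inhibitor of apoptosis (r = 0.997), PLAU, urokinase (0.994), DAB2, an endocytic adaptor (0.992), TNFAIP3, an inhibitor of NF-kB signalling (0.991), and SP100, a nuclear body protein (0.989). For B2M they were RIGI, a sensor of viral RNA (0.998), CCL5, a T cell chemokine (0.997), MX1, an antiviral GTPase (0.997), SAR1A, a GTPase of vesicle export (0.997), and CMPK2, a nucleotide kinase (0.996). Of these, CMPK2 was above the negative controls on 3 of the 9 arrays and MX1 on 8. B2M had r = 0.964 with the mean of the HLA genes. For NLRC5, whose values are below background, they were DEPTOR, DCAF8L1, KIF2C, GPR83 and ERVV-1 at r of 0.899 to 0.924, and 4 of these 5 were themselves below the negative controls on all arrays.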

How the data were processed

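Total RNA of ACC-MESO-1 cells was hybridized to 9 arrays in 3 groups of 3. The authors summarised signal per transcript cluster by RMA in Affymetrix Expression Console 1.4, per the submitters' processing notes, and deposited log2 values; base 2 is taken as the RMA default, and RMA options were not stated. RMA equalises arrays, so only relative change is read.

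Of 24351 probe sets 2903 controls were set aside and 21448 clusters tested without a filter. Symbols came from the platform annotation: 17709 clusters had 1 symbol, 0 several and 3739 none. For 20 genes with several clusters the one of highest mean stood for the gene. limma 3.58.1 in R 4.3.3 (lmFit, eBayes without trend, 1 fit of 3 groups) gave 4 contrasts with two-sided p-values and Benjamini-Hochberg adjustment over all clusters; the fit was tested on simulated data. Members and gene lists were chosen with earlier results of these data known. Named were all members, from each list up to 4 genes past the test with both hairpins, and the 5 genes most like each profile; other list genes were chosen after their values were seen. Promoters are from RefSeq (GRCh38.p14); motifs were shortened after a first search with longer forms, under which HLA-G had no kappa-B match. Alternatives were a second quantile normalization, median subtraction, cyclic loess, omission of the dimmest clusters, a trended robust prior, array weights, only the groups compared, a block for spike-in class, and omission of each array in turn. Plots used matplotlib 3.10.9. The number of arrays limits precision.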

Additional observations from a re-analysis of the deposited data

How the results depend on the processing

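With shLSD1 #2, the calls of HLA-C, HLA-E, HLA-F, HLA-G and B2M kept direction and side of the threshold under all 17 alternatives, at log2 changes between -1.42 (HLA-C) and -0.78 (HLA-G). With shLSD1 #1 they did so under all but the spike-in class block, where 2 members passed in place of 5; in the mean of both hairpins 3 passed there, HLA-C missing at adjusted p = 0.0503 and HLA-G at 0.0995 (limma). There the standard error of HLA-C with shLSD1 #1 was 0.40 against 0.21. Leaving out each array in turn ended no call of a member: the largest adjusted p was 0.0317 (HLA-G with shLSD1 #1). Over these omissions the shLSD1 #1 change of HLA-C ran from -1.61 (without replicate 5) to -1.20. The correlation of deviations of HLA-C with HLA-E was 0.19 without shLSD1 #1 replicate 5, an alternative chosen after seeing the data. NLRC5 passed under no alternative in which it was tested, and the filter on low signal removed it. With values raised to 7.248, the mean negative control percentile, the medians of 5 of the 8 gene lists became 0.0 with both hairpins: class I-like, MHC class II, NLR, heavy chain turnover and neighbour genes. That of the proteasome list with shLSD1 #1 became -0.32, and the promoter regulator and peptide loading medians did not move. At the 99th percentile of the negative controls, 4 members rather than 5 were above on all arrays. HLA-G was above it on 2 of 3 control and 2 of 3 shLSD1 #1 arrays. No paired analysis was possible because the groups share no replicate numbers.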
